A study of Mus musculus with 38 samples.

Results

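Hair germ cells of mutant and wild type mice were compared at postnatal day 56 (P56), when the hair follicles of wild type dorsal skin rest in telogen. The study reports that mutant skin at this age mixes resting follicles with many growing ones. Genotype and hair cycle phase therefore cannot be told apart here, and the part of the phase in the changes below was not tested. The 4 libraries were chosen by their labels, 2 from wild type and 2 from mutant hair germ cells, out of 38 libraries in the series. Mutant mice carry an oncogenic *Nras* driven by the promoter of tyrosinase, which the study describes as highly specific to melanocytes. They form pigmented nevi with excess hair. Whether the transgene is made in the epithelial cells profiled here was not tested. Wild type mice lack the transgene, and both groups were sampled from dorsal skin. The study describes biological triplicates for its mouse bulk RNA-seq, while 2 libraries per group are listed for hair germ cells. The gate for hair germ cells and the animal behind each library are not stated for these samples. The p-values therefore measure the spread between these libraries, which may be technical.

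The hair germ is a small cluster of epithelial progenitors below the bulge, pressed against the dermal papilla. It is the first epithelial compartment to divide when a follicle leaves rest, before the bulge stem cells, and it answers to WNT, hedgehog, FGF and BMP signals that pass between the epithelium and the papilla. WNT and hedgehog signals are known to start growth and BMP signals to hold the follicle at rest. P-cadherin (*Cdh3*), *Lgr5*, *Lef1*, *Edar* and *Gli1* are among the genes used to recognise it, and *Cd34* marks the bulge above it.

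The values are FPKM, read fragments scaled to transcript length and library size. Read totals are not in the table, so depth is unknown and no counting interval can be given. Between 11255 and 11993 genes per library reached 1 FPKM. Across the genes tested, the log2 values of replicates correlated at 0.9942 in wild type and 0.9954 in mutant cells, and at 0.9381 to 0.941 between genotypes. *Xist*, the RNA that coats the inactive X chromosome, stood at 22.9 to 33.8 FPKM in the 4 libraries and the Y-linked *Ddx3y* was listed at 0 in each. *Nras* was 36.9 and 37.9 FPKM in wild type libraries and 60.6 and 71.0 in mutant libraries, a log2 change of 0.80 that was not called as deposited and 1.05 with a call after rescaling. The origin of these *Nras* reads was not tested.

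The label was checked against its markers. In wild type libraries *Cd34* was 4.17 and 4.25 FPKM, against 465 and 906 in the bulge libraries of the same age and genotype, and *Edar* was 18.9 and 18.7 FPKM against 0.65 and 0.71. *Lef1* was likewise higher in wild type hair germ, at 10.9 and 10.5 FPKM against 4.08 and 1.70 in wild type bulge. *Cdh3*, *Lgr5*, *Gli1* and *Lhx2* did not follow this order. *Cdh3* was 17.9 and 17.4 FPKM in wild type hair germ and 37.4 and 33.3 in wild type bulge. In the same libraries *Lgr5* was 18.5 and 18.8 against 74.4 and 78.1 FPKM. *Gli1* was 3.10 and 3.53 against 9.79 and 4.91, and *Lhx2* 31.7 and 29.9 against 77.4 and 109. Genes of other follicle compartments were also high. The summed level of 14 sebaceous gland genes was 4686 and 4829 FPKM in wild type hair germ and 551 and 902 in wild type bulge. Most of the hair germ sum came from *Mgst1* (2263 and 2423 FPKM) and *Plin2* (1298 and 1275 FPKM). *Mc5r* and *Awat2* were at 18.7 to 24.9 FPKM there, against 1.12 to 4.02 in wild type bulge. The sum of 11 upper follicle genes was 4956 and 5003 FPKM in wild type hair germ against 2715 and 1137 in wild type bulge. The hair germ and bulge tables were made separately, so these levels stand side by side without a test. In mutant libraries *Lgr5*, *Lef1*, *Edar* and *Gli1* were at 2.57 FPKM or less, below their wild type levels. *Cdh3* was higher there, at 32.0 and 31.8 FPKM, and *Cd34* lower, at 0.43 and 0.48 FPKM. Markers thus moved both away from the label and toward it. *Shh* has no entry for either genotype. Fewer cells of a type and less RNA per cell cannot be told apart in bulk libraries.

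Of 11525 protein-coding genes tested, 596 were higher and 1057 lower in mutant hair germ, called at an adjusted p under 0.05 and a change of 2-fold or more. That is 5.17% and 9.17% of the genes tested, and 14.3% together. The median gene was lower in mutant libraries by 0.26 on the log2 scale. When the 4 libraries were rescaled to the same median ratio, 858 genes were higher (7.44%) and 660 lower (5.73%), so the share of higher genes among the calls went from 36.1% to 56.5%. The 596 rises were called both ways, and 660 of the 1057 falls were. Log2 changes are therefore given as deposited, and where rescaling alters the call of a named gene this is said beside it. With no fold threshold, 66.5% of the genes passed in limma, 2073 of them higher and 5586 lower. List counts at an unadjusted p under 0.05 below stand beside this wider lean to lower values. Groups of 2 libraries rarely overlapped here: 23.8% of the genes tested were higher and 60.3% lower in both mutant libraries than in both wild type libraries.

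**Figure D1:**
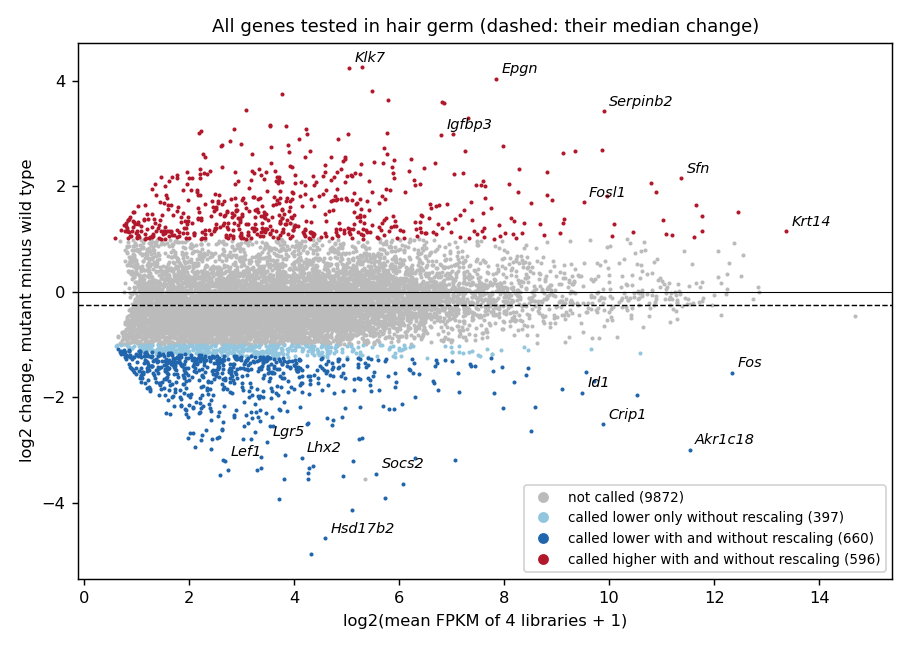
Log2 change of each gene tested (mutant minus wild type, y axis) against its mean level over the 4 hair germ libraries (log2 of mean FPKM + 1, x axis), with calls in colour. The dashed line is the median change of -0.26, and the 397 genes in pale blue were called lower only before rescaling.

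The markers of the hair germ split into a group that fell and a group that rose. Of 15 listed markers, 14 were tested, of which 7 fell and 2 rose, with a median log2 change of -1.20 against -0.26 over all genes. *Lgr5*, the R-spondin receptor of follicle stem cells (chr10:115450311-115587780, GRCm38), was 18.5 and 18.8 FPKM in wild type libraries and 2.07 and 1.43 in mutant libraries, a 10.6-fold lower mean and a log2 change of -2.85 ± 0.13 (SE, n = 2 per group, adjusted p = 3.7e-05). *Lef1*, the transcription factor through which WNT signals act (chr3:131110471-131224356), went from 10.9 and 10.5 to 0.36 and 0.17 FPKM, with a log2 change of -3.21 ± 0.12 (adjusted p = 2.0e-05). Both mutant libraries lay far below both wild type libraries for these genes.

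*Lhx2*, a transcription factor that keeps follicle progenitors from differentiating (chr2:38339281-38369733), was 31.7 and 29.9 FPKM in wild type and 2.04 and 3.22 in mutant libraries (log2 change -3.15). *Edar*, the ectodysplasin receptor, fell from 18.9 and 18.7 to 2.57 and 2.24 FPKM (log2 change -2.54). *Runx1* (log2 change -1.41) and *Tfap2b* (log2 change -1.72), both follicle transcription factors, fell as well, by less. In each of these genes the lower wild type library lay far above the higher mutant library.

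The markers that rose are keratins of the whole basal layer. *Krt14* (chr11:100203162-100207548) was 6514 and 6700.3 FPKM in wild type and 14169 and 15152 in mutant libraries, 2.22-fold higher, and its partner *Krt5* changed alike (log2 change 1.14). *Cdh3* was 17.9 and 17.4 FPKM in wild type and 32.0 and 31.8 in mutant libraries, a log2 change of 0.82 that was not called, and 1.07 with a call after rescaling. *Krt17* went the same way (log2 change 0.79, and 1.05 with a call after rescaling). *Sox9*, shared by bulge and germ, stood at 121 and 131 FPKM against 105 and 104 (log2 change -0.26, the median of all genes).

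**Figure D2:**
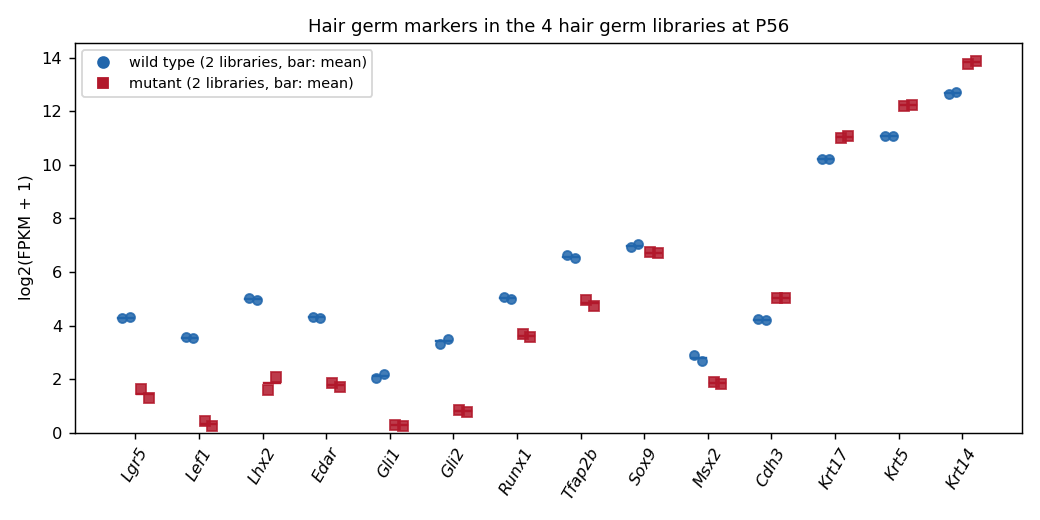
Levels of 14 epithelial and hair germ genes (log2 of FPKM + 1) in the 2 wild type and 2 mutant hair germ libraries, with bars for the means. *Lgr5*, *Lef1*, *Lhx2*, *Edar*, *Gli1* and *Gli2* are low in both mutant libraries, while *Cdh3* and the keratins are higher.

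Markers of the neighbouring bulge fell in part. Of 22 bulge stem cell markers 21 were tested, and 12 fell (9 after rescaling) and 1 rose (2 after rescaling). *Cck*, which encodes cholecystokinin, was 144 and 139 FPKM in wild type and 14.5 and 15.6 in mutant libraries (log2 change -3.15). *Myoc*, which encodes the secreted protein myocilin, went from 11.1 and 11.2 FPKM to 0.14 and 0.20 (log2 change -3.38). *Cd34* fell from 4.17 and 4.25 to 0.43 and 0.48 FPKM. The member that rose was *Postn*, a matrix protein, from 17.8 and 18.2 to 74.0 and 64.9 FPKM. *Krt15* (log2 change 0.77, and 1.03 with a call after rescaling) and *Nfatc1*, a factor that holds bulge cells at rest (log2 change -0.44), were not called. Of 9 genes that the study ties to quiescence in the bulge, a list it chose on bulge samples of this series, 8 were tested and 4 fell (3 lower and 1 higher after rescaling), among them *Ctgf* (9.31 and 9.42 to 0.44 and 0.63 FPKM) and *Foxc1* (10.2 and 11.4 to 4.98 and 4.13 FPKM, not called after rescaling). *Col17a1*, a hemidesmosome collagen of this list, was 189.7 and 183 FPKM in wild type and 321 and 328 in mutant libraries (log2 change 0.80, and 1.06 with a call after rescaling).

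Follicle transcription factors were counted over 29 genes, of which 28 were tested. There were 10 that fell (7 after rescaling) and 3 that rose (4 after rescaling), and the median log2 change was -0.82. *Tbx1*, a bulge and germ factor, went from 37.8 and 31.2 FPKM to 2.32 and 2.22 (log2 change -3.43). *Foxi3*, which placodes and germs use, was 10.4 and 6.72 FPKM in wild type and 0.32 and 0.37 in mutant libraries (log2 change -2.80). *Hoxc13*, a regulator of hair shaft keratins, was 4.43 and 4.71 FPKM in wild type and 0.58 and 0.49 in mutant libraries. Those that rose were *Ovol1*, *Klf5* and *Cux1*, with log2 changes of 1.298, 1.04 and 1.05, all 3 known in differentiating epithelium.

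In the WNT pathway ligands and receptors moved apart. Of 25 ligands and their secretion partners 15 were tested, and 6 rose and 2 fell, with neither fall kept after rescaling. *Wnt3* was 8.37 and 8.28 FPKM in wild type and 50.9 and 51.4 in mutant libraries, 6.14-fold higher. *Wnt16* went from 4.34 and 3.44 to 24.1 and 24.96 FPKM, and *Wnt7b* from 4.03 and 3.79 to 19.8 and 20.7 FPKM. *Wnt10a*, the most abundant ligand of the list in these libraries, rose from 48.4 and 43.5 to 124 and 128 FPKM. These 4 genes encode secreted proteins that bind frizzled receptors. The 2 falls were *Wnt10b* and *Wnt7a*, each by a little over 1 on the log2 scale.

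Of 18 WNT receptors and co-receptors 16 were tested, 8 fell (5 after rescaling) and 1, *Fzd10*, rose. Besides *Lgr5*, its relative *Lgr4* went from 14.8 and 16.0 FPKM to 5.15 and 5.27 (log2 change -1.40). The frizzled receptor *Fzd2* fell from 4.82 and 4.48 to 0.90 and 0.77 FPKM, and the co-receptor *Ror1* from 7.15 and 7.31 to 2.25 and 2.5 FPKM. *Lrp6*, the co-receptor of the canonical pathway, changed by -1.14 and lost its call after rescaling.

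Of 17 WNT effectors and targets 15 were tested, none was called higher and 5 fell (4 after rescaling), and at an unadjusted p under 0.05 in limma the counts were 0 higher and 13 lower. *Notum*, a target that inactivates WNT ligands, went from 9.54 and 7.48 FPKM to 0.18 and 0.23 (log2 change -2.97). *Nkd1*, a feedback inhibitor, went from 2.49 and 2.61 to 0.16 and 0.07 FPKM. *Axin2*, the most used reporter of the pathway, was 2.99 and 4.02 FPKM in wild type and 2.12 and 1.86 in mutant libraries, a log2 change of -0.58 that was not called. Among 7 of 13 secreted antagonists tested 3 fell, led by *Wif1*, from 17.1 and 16.9 FPKM to 0.65 and 0.82 (log2 change -3.38). *Dkk3* (log2 change -1.45) and *Sfrp2* (log2 change -1.36) were the others.

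*Gli1* and *Gli2*, transcription factors of the hedgehog pathway, fell. Of 17 listed genes 13 were tested, 4 fell (3 after rescaling) and none was called higher before rescaling (in limma 1 was higher and 11 lower at an unadjusted p under 0.05), while the ligands *Shh* and *Dhh* have no entry in the table. *Gli2* was 8.83 and 10.4 FPKM in wild type and 0.80 and 0.71 in mutant libraries (log2 change -2.59). *Gli1*, a direct target of the pathway, went from 3.10 and 3.53 to 0.22 and 0.19 FPKM (log2 change -1.84). *Ptch1*, the receptor and a target itself, was 2.25 and 2.06 FPKM in wild type and 0.59 in each mutant library, a 3.65-fold lower mean whose log2 change of -0.99 on the log2(FPKM + 1) scale just missed the threshold. *Gli3*, the GLI factor that acts mainly as a repressor, was 10.9 and 8 FPKM against 6.18 and 5.89 (log2 change -0.55) and was not called. *Gas1*, a co-receptor, changed by -1.20, and by -0.96 with no call after rescaling.

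BMP targets were lower. Of 10 targets 9 were tested, 4 fell with and without rescaling and 0 rose, and in limma all 9 were lower at an unadjusted p under 0.05. *Id1*, the most direct target, was 1084 and 1178 FPKM in wild type and 314 and 284 in mutant libraries (log2 change -1.92). *Id2* (log2 change -1.55) and *Id4* (log2 change -1.85) fell as well, and the feedback inhibitor *Smad6* went from 4.16 and 3.67 to 0.57 and 0.76 FPKM. Of 12 ligands 7 were tested, 1 rose and 2 fell. *Bmp2* was 17.5 and 18.2 FPKM in wild type and 15.3 and 15.1 in mutant libraries, and *Bmp4* was 14.8 and 12.6 against 21.5 and 21.7, and neither was called. *Gdf5* and *Gdf15* fell by 1.96 and 2.19 on the log2 scale, and *Bmp3* rose from 0.51 and 0.47 to 1.68 and 2.33 FPKM. Of 7 antagonists tested 1 rose and 1 fell. *Fst*, which binds activin and some BMPs, rose from 27.7 and 28.5 to 104 and 112 FPKM (log2 change 1.90), and *Grem1*, a BMP antagonist, fell from 2.4 and 2.38 to 0.22 and 0.26 FPKM (log2 change -1.45). Of 8 BMP receptors and SMADs tested 0 were called, and in limma 0 were higher and 5 lower at an unadjusted p under 0.05.

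EGF family and FGF family genes differed among their members. Of 14 EGF family genes 11 were tested, and 5 rose (*Epgn*, *Areg*, *Tgfa*, *Nrg1* and *Nrg2*, the last pair being ligands of other ERBB receptors) and 1 fell. *Epgn*, which encodes the ligand epigen (chr5:91027464-91035215), was 23.1 and 27.7 FPKM in wild type and 428 and 434 in mutant libraries, 17.0-fold higher (log2 change 4.04 ± 0.09 SE, adjusted p = 7.3e-06). *Areg*, which encodes amphiregulin, went from 9.06 and 8.56 to 51.9 and 45.6 FPKM. *Hbegf*, the most abundant ligand of the list in wild type libraries, stood at 215 and 216 FPKM against 206 and 209 and was not called. The receptor *Egfr* was 38.7 and 41.4 FPKM in wild type and 20.4 and 18.8 in mutant libraries, a log2 change of -0.998 that was not called. *Lrig1*, which lowers EGF receptor levels, fell from 72.9 and 76.7 to 29.1 and 30.2 FPKM.

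*Fgfr1* fell from 83.9 and 82.5 FPKM to 20 and 15.8 (log2 change -2.17), while *Fgfr2* stood at 67.6 and 65.7 against 70.5 and 69.3. *Fgfr3* was 14.03 and 13.3 FPKM in wild type and 28.3 and 28.4 in mutant libraries, not called as deposited and called higher after rescaling (log2 change 1.25). Of 16 FGF genes 7 were tested, of which 3 fell, the other 2 being *Fgf1* and *Fgf21*. *Fgf7* was at or under 0.14 FPKM in each library and *Fgf5*, which ends hair growth, at or under 0.35. Of 12 targets of ERK signalling tested 1 rose and 3 fell (1 after rescaling). *Etv4*, an ETS factor, went from 15.5 and 15.02 to 3.26 and 2.77 FPKM. *Fosl1*, a subunit of the AP-1 transcription factor, rose from 351 and 335 to 1121 and 1117 FPKM (log2 change 1.70).

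**Figure D3:**
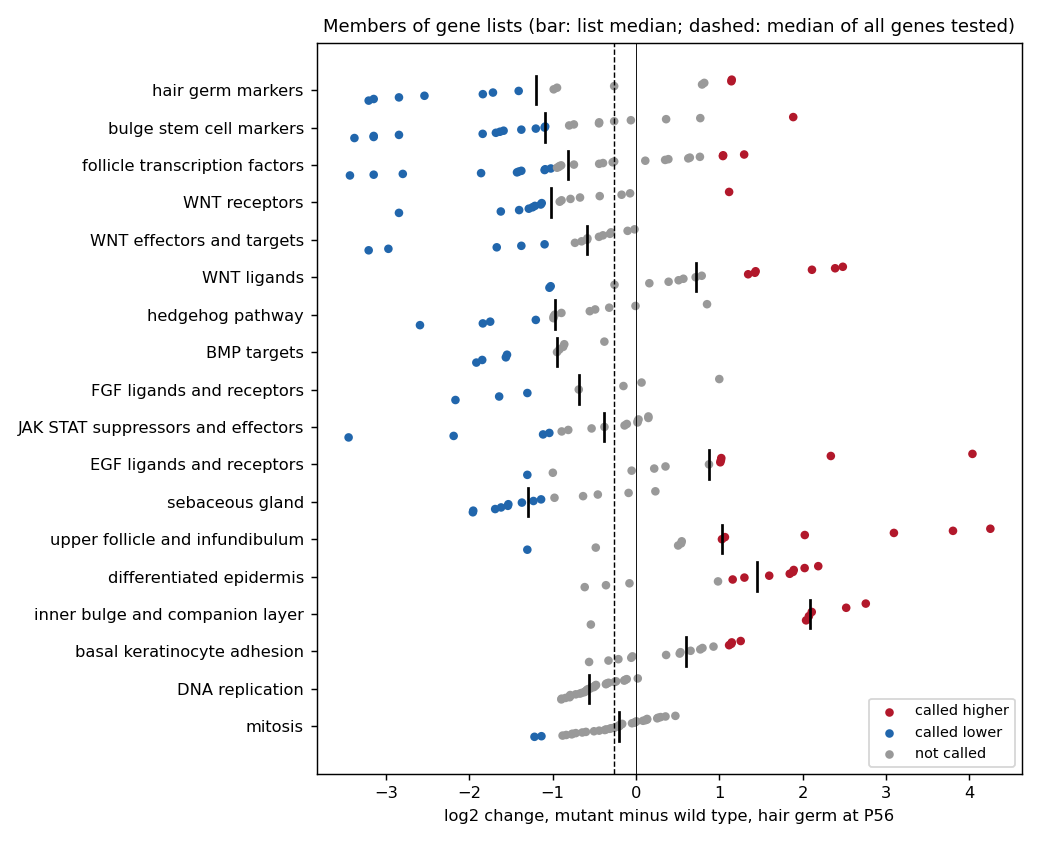
Log2 changes (mutant minus wild type) of the tested members of 18 gene lists, with called members in colour, a bar at each list's median and a dashed line at the median of all genes, -0.26. WNT receptors, WNT effectors and the hair germ, bulge stem cell and transcription factor lists lie mostly to the left. WNT ligands and the EGF family, epidermal, inner bulge and basal adhesion lists lie mostly to the right.

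The falls with the widest range included enzymes of steroid metabolism and targets of cytokine signals. *Hsd17b2*, which inactivates estradiol and testosterone (chr8:117701904-117759027), was 43.8 and 47.5 FPKM in wild type and 0.88 and 0.77 in mutant libraries, 55.3-fold lower (log2 change -4.67 ± 0.09 SE, adjusted p = 7.0e-06). *Akr1c18*, which inactivates progesterone, went from 5229 and 5324 to 649 and 673 FPKM and was among the most abundant genes that fell. Its relative *Akr1c19* fell from 124 and 125 to 9.32 and 8.66 FPKM. *Ifnk*, the interferon of keratinocytes, was 63.3 and 64.8 FPKM in wild type and 2.20 and 3.26 in mutant libraries.

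*Socs2*, a feedback inhibitor induced by STAT5, went from 85.7 and 85.9 to 7.27 and 6.63 FPKM (log2 change -3.45). *Stat5a* fell from 62.0 in each wild type library to 13.5 and 12.1 FPKM. Of 15 JAK and STAT genes tested 4 fell (2 after rescaling) and 0 rose, with 1 higher and 8 lower at an unadjusted p under 0.05 in limma. Their median log2 change was -0.38, against -0.26 over all genes. *Bex1* (98.5 and 97.9 to 5.11 and 6.13 FPKM), *Oxtr*, the oxytocin receptor (54.0 and 56.4 to 3.97 and 4.01 FPKM), *Mia* (23.5 in each to 0.27 and 1.03 FPKM), *Fam13a* (log2 change -3.56) and *Zfp280b* (log2 change -3.55) had falls of the same order. *Gm10800* and *Gm10801* (log2 changes -4.98 and -3.47) are predicted genes to which reads of repeats may be counted, and *Akr1c* genes share sequence with each other, so these values are uncertain.

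The most abundant genes that fell, besides *Akr1c18*, were *Fos*, *Egr1*, *Mgst1* and *Crip1*. *Fos* went from 7623 and 7750.3 to 2638 and 2681 FPKM (log2 change -1.53) and *Crip1* from 1580.1 and 1639 to 290.5 and 274 FPKM. *Egr1* lost its call after rescaling (log2 change -0.90). Both *Fos* and *Egr1* are immediate early genes, which also respond to the handling of cells. Of 19 such genes tested 4 fell (2 after rescaling), and 1, the phosphatase *Dusp1*, rose. *Jun* stood at 1441 and 1439 FPKM against 1402 and 1436, and *Atf3* at 2530.1 and 2580.3 against 2579.9 and 2601.

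Genes of the differentiated epidermis rose. Of 15 listed 12 were tested, and 8 rose (9 after rescaling) and 0 fell, with a median log2 change of 1.45. In limma 9 were higher and 0 lower at an unadjusted p under 0.05. *Krt1*, the keratin of the first suprabasal layer, was 128 and 131 FPKM in wild type and 494 and 468 in mutant libraries. *Krtdap*, a secreted protein of the spinous layer, went from 792 and 813 to 3029 and 2938 FPKM, *Krt77* from 70.9 and 67.5 to 290.2 and 279 FPKM and *Dsg1a*, a desmoglein, from 10.4 and 10.8 to 49.5 and 54.2 FPKM. *Krt2*, a late keratin, rose from 0.07 and 0.12 to 1.57 and 1.33 FPKM, and *Cdsn*, which holds cornified cells together, was called higher only after rescaling. *Ivl* was 45.8 and 46.7 against 44.4 and 43.1 FPKM and was not called, and *Lor* and *Flg* stayed at or under 3.13 FPKM in each library.

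Genes of the upper follicle rose in part. Of 11 genes, all tested, 6 rose and 1, *Lrig1*, fell. *Klk7*, a kallikrein protease of the horny layer (chr7:43811294-43816359), was 2.87 and 1.80 FPKM in wild type and 61.1 and 62.5 in mutant libraries, 26.5-fold higher (log2 change 4.25 ± 0.16 SE, adjusted p = 1.9e-05). *Klk10* went from 3.14 and 2.76 to 32.8 and 32.7 FPKM. *Sprr1b*, a small proline-rich protein of the cornified envelope (chr3:92436809-92438789), went from 4.84 and 5.16 to 77.2 and 88.8 FPKM (log2 change 3.80). *Krt79*, *Plet1* and *Defb6*, which define this region, were not called, with log2 changes of 0.51, 0.54 and 0.55.

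Most tested genes of the inner bulge and companion layer rose. Of 8 genes 6 were tested, and 5 rose and 0 fell, *Timp3* being the one not called (log2 change -0.54). *Krt75* and *Fgf18* were under 1 FPKM in each library and were not tested. In limma 5 were higher and 1 lower at an unadjusted p under 0.05. *Krt16* was 66.4 and 61.9 FPKM in wild type and 435 and 444 in mutant libraries (log2 change 2.76). *Krt6a* went from 6.65 and 7.82 to 32.0 and 35.3 FPKM, *Krt6b* from 0.22 and 0.10 to 3.93 and 4.07 FPKM and *Chit1*, a chitinase, from 21.4 and 21.2 to 123 and 131 FPKM. *Krt16* and the *Krt6* genes are also induced in stressed and wounded epidermis. Of 16 genes of basal adhesion 4 rose (7 after rescaling) and 0 fell (in limma 11 higher and 3 lower at an unadjusted p under 0.05), with *Itga3* and *Lamb3*, an integrin and a laminin chain, at log2 changes of 1.26 and 1.12.

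The 12 largest rises also included these genes. *Ptges*, the synthase of prostaglandin E2, was 8.23 and 6.34 FPKM in wild type and 98.4 and 104 in mutant libraries. *Ch25h*, which makes 25-hydroxycholesterol, went from 15.1 and 17.5 to 205 and 211 FPKM. *Il1r2*, the decoy receptor of interleukin 1, went from 17.3 and 16.2 to 209 and 214 FPKM, and *Il24* from 0.41 and 0.47 to 14.8 and 14.5 FPKM. *Serpinb2*, a protease inhibitor, was already abundant in wild type libraries at 147 and 176 FPKM and reached 1706 and 1777 FPKM in mutant libraries (log2 change 3.43).

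**Figure D4:**
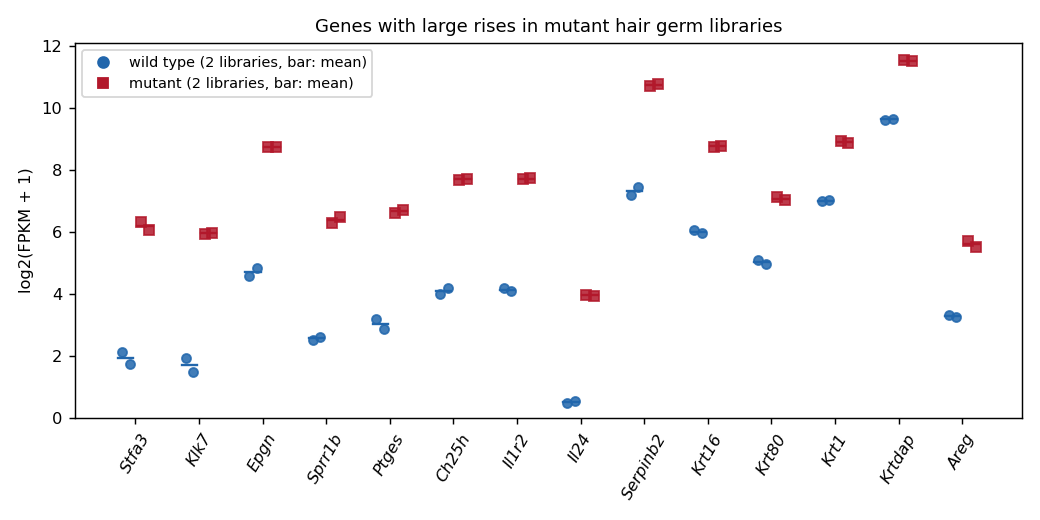
Levels of 14 genes of the epidermis, the EGF family and inflammation (log2 of FPKM + 1) in the 4 hair germ libraries, with bars for the means. Each gene is higher in both mutant libraries, and *Serpinb2* and *Krtdap* were abundant in wild type libraries as well.

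Of 50 factors listed here for the senescence-associated secretory phenotype (SASP), the secretions of senescent cells, 36 were tested, of which 15 rose and 8 fell (4 after rescaling). *Igfbp3*, which binds insulin-like growth factors, went from 24.3 and 23.8 to 199.8 and 194 FPKM and *Mmp3*, a stromelysin, from 1.23 and 0.75 to 13.2 and 12.5 FPKM. *Igfbp2* and *Igfbp4* of the same family fell by 2.21 and 1.71 on the log2 scale. The chemokine *Cxcl1* and the adhesion receptor *Icam1* had log2 changes of -1.14 and -1.18, both lost as calls after rescaling. The cell cycle inhibitor *Cdkn2b* rose from 2.37 and 3.59 to 7.91 and 8.62 FPKM (log2 change 1.24), and *Cdkn2a* has no entry in the table. Of 9 CDK inhibitors tested 1 rose and 1 fell, the latter *Cdkn1b* (log2 change -1.12, not called after rescaling), and *Cdkn1a* was called higher only after rescaling (0.87 as deposited and 1.127 rescaled). *Stfa3* (3.38 and 2.39 to 79.5 and 67.0 FPKM), *Stfa1*, *BC100530* and *Sprr2a2* had log2 changes of 4.26, 3.17, 3.75 and 3.30. These have close paralogs among which reads can be split, so their values are uncertain.

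The promoters of the genes called were searched for 3 motifs. In windows of 300 bases from RefSeq (GRCm38.p6), from 250 before to 50 after the start, the AP-1 motif TGANTCA, read on both strands, was found in 12.8% of 439 promoters of genes called higher, in 3.7% of 784 of genes called lower and in 4.89% of the 8778 tested genes with a window. Over all 27025 windows it was in 7.93%. The TCF/LEF motif CTTTGAT was in 2.96% of the higher and 2.93% of the lower genes, against 2.46% of those tested, and the GLI motif GACCACCCA in 0.228% and 0.255%, against 0.194%. These shares are a description without a test, and a match is a run of letters, not a bound site. The AP-1 subunits themselves moved in both directions, *Fosl1* up and *Fos* down, as given above. The search of named genes covered 124 that have a window. It left out a chromosome, and the named genes there were not looked at. Among those of the 124 that fell, *Fas*, *Ltbp3* and *Osmr* (the last not called after rescaling) held the AP-1 motif in their windows. The 130 bases before the start are printed for the 6 of these 124 genes that rose and hold the AP-1 motif there, with the motif in capitals. They lie at chr3:92438780-92438909 on the minus strand (*Sprr1b*) and on the plus strand at chr1:107511293-107511422 (*Serpinb2*), chr9:7445692-7445821 (*Mmp3*), chr1:134111112-134111241 (*Chit1*), chr7:30787775-30787904 (*Krtdap*) and chr3:142620533-142620662 (*Gbp2*, an interferon-induced GTPase with a log2 change of 1.44).
Sprr1b: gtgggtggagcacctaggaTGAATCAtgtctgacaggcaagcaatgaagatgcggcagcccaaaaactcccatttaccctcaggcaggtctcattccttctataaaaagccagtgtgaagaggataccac
Serpinb2: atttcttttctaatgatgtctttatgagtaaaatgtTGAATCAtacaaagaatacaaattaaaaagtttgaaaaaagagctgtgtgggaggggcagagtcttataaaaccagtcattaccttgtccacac
Mmp3: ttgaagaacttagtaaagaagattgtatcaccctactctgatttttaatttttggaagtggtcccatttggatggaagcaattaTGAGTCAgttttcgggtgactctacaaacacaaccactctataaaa
Chit1: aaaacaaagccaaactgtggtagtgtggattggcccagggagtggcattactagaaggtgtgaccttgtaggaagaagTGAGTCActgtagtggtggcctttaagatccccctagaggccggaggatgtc
Krtdap: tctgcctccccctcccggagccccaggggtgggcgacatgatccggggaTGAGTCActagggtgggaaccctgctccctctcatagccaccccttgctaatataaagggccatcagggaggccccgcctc
Gbp2: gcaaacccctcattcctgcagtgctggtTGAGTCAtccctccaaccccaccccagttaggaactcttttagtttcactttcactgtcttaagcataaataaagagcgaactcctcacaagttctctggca

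Among those of the 124 named genes searched that fell, *Edar* alone held the TCF/LEF motif. Among those of the 124 that rose, *Krtdap* held it. The 250 bases before the start of *Edar* (chr10:58675697-58675946, minus strand) are shown with that motif in capitals.
Edar: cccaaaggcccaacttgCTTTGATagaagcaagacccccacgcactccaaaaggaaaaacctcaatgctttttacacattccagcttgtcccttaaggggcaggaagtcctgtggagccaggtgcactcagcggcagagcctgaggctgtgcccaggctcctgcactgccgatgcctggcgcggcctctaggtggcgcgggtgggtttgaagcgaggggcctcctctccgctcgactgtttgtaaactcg

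Most sebaceous gland genes, which were abundant in wild type hair germ libraries, fell. All 14 listed were tested, 9 fell (8 after rescaling) and 0 rose, with a median log2 change of -1.3, and in limma 1 was higher and 12 lower at an unadjusted p under 0.05. *Mgst1*, a glutathione transferase, was 2263 and 2423 FPKM in wild type and 594 and 609.8 in mutant libraries. *Plin2*, which coats lipid droplets, went from 1298 and 1275 to 389.9 and 406 FPKM. *Mc5r*, the melanocortin receptor of the gland, went from 20.5 and 18.7 to 4.26 and 4.35 FPKM, and *Awat2*, a wax synthase, from 24.9 and 24.4 to 6.90 and 7.81 FPKM. The summed level of the list was 4686 and 4829 FPKM in wild type and 1529 and 1581 in mutant libraries. Its part in the other falls was not tested.

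Markers of cells outside the epithelium were low and several were higher in mutant libraries. Of 12 melanocyte genes 6 were tested, 3 rose and 1 fell, and the list summed to 17.95 and 18 FPKM in wild type libraries and to 34.9 and 33.8 in mutant libraries. *Dct*, an enzyme of melanin synthesis, was 5.24 and 4.50 against 14.95 and 14.2 FPKM and *Mlana* 0.21 and 0.19 against 4.92 and 4.26, while *Mitf*, the regulator of the lineage, fell from 7.59 and 8.63 to 2.4 and 2.6 FPKM (log2 change -1.38). *Tyr* was at or under 0.23 FPKM and *Kit* at or under 0.58 in each library. Of 16 immune genes 10 were tested and 4 rose, with sums of 102 and 101 FPKM in wild type and 159 and 159.8 in mutant libraries. *Lyz2* went from 0.56 and 0.57 to 10.0 and 9.64 FPKM and *Tyrobp* from 0.24 and 0.44 to 5.10 and 5.77, and *Ptprc*, the pan-leukocyte marker, stayed at or under 0.25 FPKM. Fibroblast, endothelial, mural, red blood cell, adipocyte and nerve lists each summed to at most 29.5 FPKM in a library, and the mutant sum was higher in the fibroblast, red blood cell, adipocyte and nerve lists. The dermal papilla list summed to 37.95 and 36.7 FPKM in wild type and 28.9 and 29.1 in mutant libraries, with *Wif1*, given above as a WNT antagonist, and *Crabp1* called lower among 5 tested (1 of them after rescaling). The part of these cells in the changes above was not tested.

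Osteopontin itself was low. *Spp1*, which encodes it, was 0.50 and 0.56 FPKM in wild type and 0.07 and 0.15 in mutant libraries and passed no filter. *Cd44*, a receptor of osteopontin on epithelial cells, was 28.6 and 33.7 FPKM in wild type and 62.3 and 66.2 in mutant libraries, 2.07-fold higher (log2 change 1.03 ± 0.09 SE, adjusted p = 0.00031). *Itgb6*, an integrin chain that also binds it, rose from 4.28 and 4.88 to 16.0 and 13.98 FPKM. Of 11 genes for osteopontin and its receptors 6 were tested, and 2 rose and 0 fell (in limma 5 higher and 0 lower at an unadjusted p under 0.05). *Mmp9* was listed at 0 in each library.

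Division genes were not raised in mutant hair germ. Of 30 DNA replication genes, all tested, 0 were called in either direction with or without rescaling, and in limma 0 were higher and 25 lower at an unadjusted p under 0.05, with a median log2 change of -0.56 (-0.34 after rescaling, when the median of all genes was -0.03). *Pcna*, the sliding clamp, was 175 and 179 FPKM in wild type and 116 and 126 in mutant libraries. Of 35 mitosis genes 0 rose and 2, *Ndc80* and *Mad2l1*, fell (1 after rescaling), with 5 higher and 17 lower at an unadjusted p under 0.05 in limma. The median log2 change of the mitosis list was -0.20, near the -0.26 of all genes. *Mki67* was 6.40 and 6.96 FPKM in wild type and 4.39 and 4.43 in mutant libraries (log2 change -0.50). *Mycn* went from 8.09 and 9.63 to 0.69 and 1.19 FPKM (log2 change -2.35), and *Ccne1* and *Ccne2*, the E cyclins, changed by -1.02 and -1.13, neither called after rescaling.

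Of 17 genes listed for the inner root sheath, a layer of growing follicles, 11 were tested. Of these 6 rose and 1 fell, the fall not kept after rescaling. The rises were not of keratins alone, as *Dsg3*, a desmoglein, went from 5.76 and 5.57 to 20.3 and 21.7 FPKM. The keratins of the list were low in both genotypes. *Krt25*, *Krt28* and *Krt71*, keratins of the inner root sheath, were at or under 1.73 FPKM in wild type libraries and 3.34 to 6.14 in mutant libraries. *Krt35* of the hair cortex was 0.12 and 0 FPKM in wild type and 1.35 and 1.58 in mutant libraries. Of 27 matrix and shaft genes 11 were tested, and 1 rose and 2 fell.

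Other pathways were counted in the same way. Of 11 Notch genes tested 0 were called (in limma 2 higher and 7 lower at an unadjusted p under 0.05). Of 11 genes of class I antigen presentation 0 were called before rescaling (in limma 9 higher and 1 lower at an unadjusted p under 0.05) and 4 rose after it, with *B2m* at 3382 and 3936 FPKM in wild type and 6669 and 7248 in mutant libraries (log2 change 0.93). Of 16 TGF beta and activin genes 6 fell (5 after rescaling) and 0 rose, *Ltbp2*, *Ltbp3* and *Tgfbr3* among them, and in limma 2 were higher and 10 lower at an unadjusted p under 0.05. Of 17 glycolysis genes 2 were called (11.8%, against 14.3% over all genes), both higher. They were *Slc16a3*, a lactate exporter, from 0.58 and 0.68 to 6.18 and 7.14 FPKM, and *Pfkl*. Cholesterol synthesis genes went both ways, with *Sc5d* at a log2 change of 2.19 and *Lss* at -1.27 among 19 tested. *Gclc*, the enzyme that limits glutathione synthesis, fell from 30.4 and 31.9 to 4.47 and 4.82 FPKM. *Ciart*, a repressor of the clock, went from 5.20 and 5.78 to 0.56 and 0.71 FPKM, and *Rora* and *Bhlhe40* rose among 19 clock genes. The share called in the clock list was 15.8%, near that of all genes.

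Set beside the bulge at the same age, where 1482 of 12456 genes tested were called (11.9%, 5.71% higher and 6.19% lower), the calls were compared gene by gene. Of the 562 genes called higher in hair germ and tested in bulge, 11.2% were called higher and 15.3% lower in mutant bulge. Of the 530 called higher in bulge and tested in hair germ, 11.9% were higher and 19.4% lower in hair germ. For falls, 14.6% of 985 hair germ calls were also lower in bulge, which was 21.1% of 684 bulge calls, while 10.5% of the hair germ falls were higher in bulge and 12.6% of the bulge falls were higher in hair germ. *Lgr5* was 74.4 and 78.1 FPKM in wild type and 62.1 and 85.8 in mutant bulge libraries, where the groups overlapped. *Cck* and *Myoc* fell in both tables, with log2 changes of -5.11 and -3.66 in bulge, and *Sprr1b*, *Klk7* and *Krt16* rose in both, by 3.26, 3.04 and 2.64 in bulge. In bulge 14 of 35 mitosis genes rose. The bulge fit used 8 libraries and other controls, and no test between the tables was made.

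**Figure D5:**
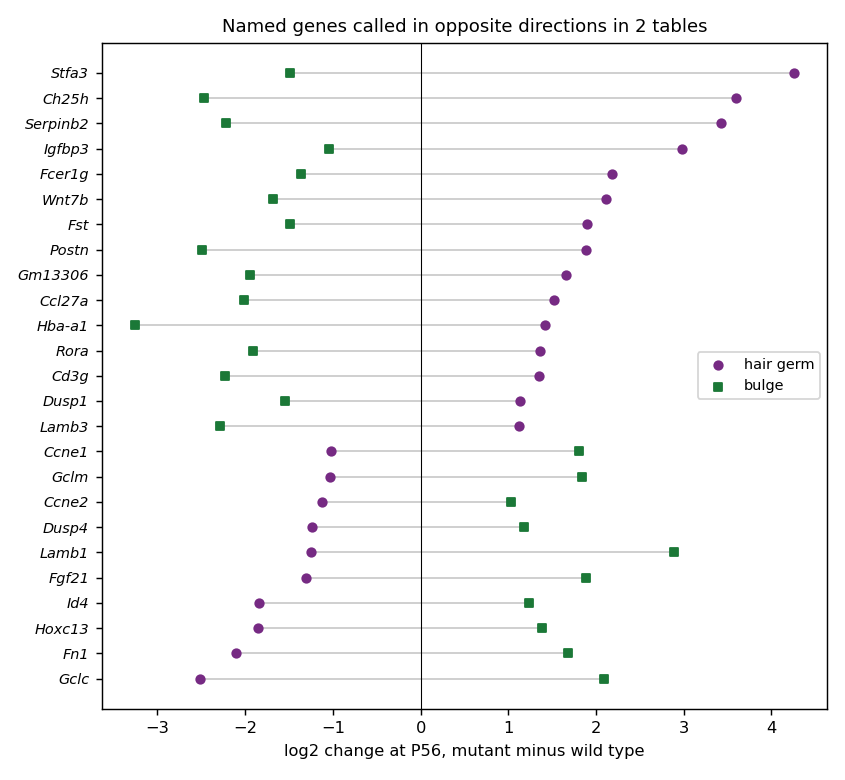
Log2 change at P56 (mutant minus wild type, x axis) in hair germ (circles) and bulge (squares) for 25 named genes that were called in opposite directions in both tables with groups that did not overlap. *Stfa3*, *Ch25h* and *Serpinb2* are higher in mutant hair germ and lower in mutant bulge, and *Gclc* and *Fn1* are lower in mutant hair germ and higher in mutant bulge.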

How the data were processed

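Libraries of hair germ cells were made from 10 ng of total RNA, per the labels, and the study describes full-length cDNA and paired reads. The authors aligned reads to GRCm38 with STAR 2.4.2 (versions from the submitters' processing notes) and used RSEM to estimate FPKM, and the deposited hair germ table holds these FPKM values for 19178 genes with no stated scaling between libraries. Authors' count data were not used here, so the study's test on counts was replaced by limma 3.58.1 in R 4.3.3 on log2(FPKM + 1), with a variance trend and 1 mean per group. Protein-coding genes at 1 FPKM or more in at least 2 libraries were tested, and p-values were adjusted by Benjamini-Hochberg over all of them, two-sided. Changes on this scale understate the ratio of low genes. Symbols turned into dates (23) were restored from gene identifiers. A search for whole-read steps between 0.2 and 1.5 FPKM put at most 3.00% of genes in a log2 bin of 0.02. Positions are from GENCODE on GRCm38. Genes named are the 12 largest rises and falls with a mean of 5 FPKM or more, up to 4 called members of each list (or its 2 most abundant members where none was called), the 5 most abundant calls each way and a set given whatever their values. Others were named after their values were seen, as were the promoter motifs and the choice of promoters shown. The 57 lists, members and rules were chosen with earlier results of these data known. Results for some genes are not reported here. The fit was tested on simulated data. Alternatives were rescaling, pseudocounts of 0.1 and 5, filters, lncRNAs, no trend, no fold threshold, a replicate block and leaving out each library. The bulge table (8 libraries) was fitted likewise.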

Additional observations from a re-analysis of the deposited data

Results flagged for a closer look

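Among the named genes, these 25 were called in hair germ and in bulge at P56 with opposite signs, and in both tables the libraries of the 2 genotypes did not overlap. They come from 184 named genes tested in hair germ, many of them named for large changes. Over all genes tested in the 2 tables, 15.3% of 562 hair germ rises and 10.5% of 985 falls were called the other way in bulge. Those called the same way were 11.2% and 14.6%. The difference between the tables was not tested. Higher in mutant hair germ and lower in mutant bulge were *Stfa3* (log2 change 4.26 in hair germ and -1.49 in bulge), *Ch25h* (3.60 and -2.47), *Serpinb2* (3.43 and -2.22), *Igfbp3* (2.98 and -1.05), *Fcer1g*, a chain of immune receptors (2.18 and -1.37), *Wnt7b* (2.11 and -1.68), *Fst* (1.90 and -1.49) and *Postn* (1.89 and -2.50). The same was seen for *Ccl27a*, a skin chemokine (1.52 and -2.01), its near copy *Gm13306* (1.66 and -1.94), *Hba-a1*, a globin (1.41 and -3.26), *Rora* (1.36 and -1.91), *Cd3g* of T cells (1.36 and -2.23), *Dusp1* (1.14 and -1.55) and *Lamb3* (1.12 and -2.29).

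Lower in mutant hair germ and higher in mutant bulge were *Gclc* (-2.51 and 2.10) and *Gclm* (-1.04 and 1.84), the 2 subunits of the enzyme that limits glutathione synthesis, *Fn1*, which encodes fibronectin (-2.11 and 1.69), *Hoxc13* (-1.86 and 1.39), *Id4* (-1.85 and 1.24), *Fgf21* (-1.30 and 1.89), *Lamb1* (-1.25 and 2.89), *Dusp4* (-1.23 and 1.18), *Ccne2* (-1.13 and 1.03) and *Ccne1* (-1.02 and 1.81). In hair germ *Gclm*, *Dusp4*, *Ccne1* and *Ccne2* were not called after rescaling, with log2 changes of -0.78, -0.9952, -0.81 and -0.92. Counts of *Ccl27a* and *Gm13306* can be split between the copies, so their values are uncertain.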

How the results depend on the processing

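As deposited, 596 genes in mutant hair germ were called higher, 1057 lower and 1653 in all, with 199 list members called. Rescaling left 660 lower, and turned the sign of *Acta2* (0.0942 on the log2 scale) and *Bmp2* (0.0268), neither called. With log2(FPKM + 0.1), 1675 genes in mutant hair germ were lower. With log2(FPKM + 5), 313 in mutant hair germ were higher, 320 lower and 633 in all, with 107 list members. With no fold threshold the counts in mutant hair germ were 2073, 5586, 7659 and 492. Without 1 library, mutant hair germ had 576 to 627 genes higher, 1096 to 1109 lower and 1685 to 1730 in all, with 192 to 203 list members, and 107 to 139 calls were lost, 0 with the other sign. The lone library of a group is then assumed to vary like the others. Filters, lncRNAs and no variance trend kept these counts within 1.5 times. Of 184 named genes tested, 16 lost and 5 gained a call on rescaling, and 65 lost it with log2(FPKM + 5), since a larger pseudocount shrinks changes. With a replicate block, mutant hair germ had 596 genes higher and 1059 lower, and the call of each named gene was as without it. Deviations of same-numbered libraries correlated at -0.0333, and the numbers were not taken to pair the samples. Rescaling the bulge gave 767 higher and 719 lower.

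Depth is unknown, so levels under about 1 FPKM cannot be weighed by counting error, and 2 libraries per group leave few degrees of freedom. The share of higher calls depends on rescaling, and no value here tells whether the shift of the median gene is one of RNA content or of scaling.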

Other observations

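Families of genes not covered above were looked up after the values of their members were seen, so their counts are a description. Interleukin 1 ligands, antagonists and receptors were mostly higher in mutant hair germ: of 9 tested 7 rose, with and without rescaling. *Il1a*, an alarm signal of keratinocytes, was 0.29 and 0.42 FPKM in wild type and 7.25 and 7.36 in mutant libraries (log2 change 2.62), and *Il1rn*, its antagonist, had a log2 change of 3.01. Of 10 CC chemokine genes tested 8 rose, among them *Ccl20* (log2 change 2.56), *Ccl2* (2.55) and *Ccl1* (3.15). Of 7 CXC chemokine genes tested 1, *Cxcl16*, rose and 1, *Cxcl1*, fell (log2 change -1.14), neither count the same after rescaling (2 higher and 0 lower). Of 7 prostaglandin synthases and receptors 5 rose, with *Ptgs2* at 2.57 and *Ptger4* at 2.51. Of 8 small proline-rich genes tested 8 rose, and these share sequence. Of 7 kallikreins 5 rose and 1, *Klk6*, fell without keeping its call after rescaling. All 4 *Akr1c* genes tested fell.

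Not every family of the skin barrier moved this way. Of 11 *S100a* genes tested *S100a4* and *S100a1* fell, and *S100a11* was called higher only after rescaling. Claudins, which seal tight junctions, went both ways among 7 tested, *Cldn4* and *Cldn1* up by 2.45 and 1.78 and *Cldn10* and *Cldn8* with changes of -3.14 and -1.87.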
